A study of Mus musculus with 3 samples.

Results

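Ileal enterocytes with high *Fabp6* were the 1537 barcodes, of 42055 in 3 libraries of sorted mouse intestinal epithelium, in which *Fabp6* made up at least 1% of the unique molecular identifiers (UMIs, each standing for 1 captured RNA molecule). They were selected on *Fabp6* itself. The other conditions were at least 500 genes detected, at most 20% mitochondrial UMIs, *Tff3* under 2% and *Defa24* under 5% of UMIs. The limits on *Tff3* and *Defa24* leave out barcodes rich in RNA of goblet cells and of Paneth cells. WT gave 848 members, *LApc* gave 514 and *LApcL* gave 175, from 11391, 10864 and 16972 barcodes that passed the filter on genes and mitochondrial UMIs. Members of different libraries shared no barcode sequence. Sets of 3 values are given in the order WT, *LApc* and *LApcL* throughout.

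The libraries were made from cells positive for EpCAM, which marks the surface of epithelium, sorted from the scraped small intestine of C57BL/6 mice, with 1 library per genotype. *LApc* was Lgr5-CreERT2;Apc fl/fl, *LApcL* had the same alleles and Lef1 fl/fl, and the control is labelled WT. *LApc* and *LApcL* here mean the libraries so labelled. The study's methods give the Cre line as Lgr5-EGFP-IRES-CreERT2, and the labels do not say whether the WT mouse carried it, although the study also calls mice with the Cre allele alone WT in another experiment. Each group had been given 2 doses of 2 mg tamoxifen at 7 to 8 weeks of age and was taken on day 21 (WT and *LApcL*) or day 29 (*LApc*). Cre was expressed from the *Lgr5* locus, which is active in crypt stem cells, so an enterocyte carries the deletion only if it descends from a recombined stem cell. *Apc* restrains the Wnt pathway, and the product of *Lef1* is among the DNA-binding factors through which that pathway acts. The labels name no segment of the small intestine. Genotype therefore cannot be told apart from mouse, library, reagent version, sampled segment and, for *LApc*, day, and with 1 library per genotype no test between groups was possible.

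Enterocytes of the ileum, the last segment of the small intestine, recover bile acids from the gut. *Slc10a2* encodes the apical transporter that takes bile acids up, *Fabp6* the cytosolic protein that binds them, and *Slc51a* with *Slc51b* the heterodimer that exports them at the basolateral side. Bile acids activate the nuclear receptor FXR, encoded by *Nr1h4*. FXR raises transcription of *Fabp6*, of both exporter genes and of *Fgf15*, a hormone that limits bile acid synthesis in the liver. *Tmigd1* encodes an adhesion protein of the brush border.

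The promoters of *Fabp6*, *Slc51b* and *Slc10a2* are shown because these genes carry the bile acid programme of the cells and their upstream sequences differ in the letters of receptor-type repeats. FXR binds inverted repeats of nuclear receptor core sites spaced by 1 base. The sequences come from RefSeq on GRCm38.p6 and run 5′ to 3′ along the gene's strand. For *Fabp6* they give the 250 bases before the RefSeq start. GENCODE on the same build starts *Slc10a2* 64 bases and *Slc51b* 182 bases farther upstream, so for *Slc10a2* only the 186 bases upstream of both starts are given, and for *Slc51b* the 30 bases around the match. Capitals mark matches to GGTNANTNACC, a form of that repeat, in *Fabp6* and *Slc51b*, and in *Slc10a2* a match on the other strand to GTTAATNATT, a form of the HNF1 core.
Fabp6, chr11:43601563-43601812, minus strand: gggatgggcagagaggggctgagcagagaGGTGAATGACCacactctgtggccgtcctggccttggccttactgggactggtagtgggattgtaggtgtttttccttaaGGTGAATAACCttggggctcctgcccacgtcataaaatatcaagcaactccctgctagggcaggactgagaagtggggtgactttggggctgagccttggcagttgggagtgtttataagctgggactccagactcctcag
Slc51b, chr9:65422940-65422969, minus strand: gcattcgtggGGTCATTCACCctggactgg
Slc10a2, chr8:5105352-5105537, minus strand: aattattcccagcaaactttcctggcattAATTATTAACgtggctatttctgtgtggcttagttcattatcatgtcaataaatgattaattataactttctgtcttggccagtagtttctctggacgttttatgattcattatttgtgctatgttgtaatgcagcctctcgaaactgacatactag
Both strands of the table's windows, from 250 bases before to 50 bases after each start, were searched, matches of the 2 motifs did not overlap, and the motifs were chosen after the sequences had been seen. *Fabp6* held 2 matches of the repeat, from 221 to 211 and from 141 to 131 bases before the start. *Slc51b* held 1, from 186 to 176 bases before the RefSeq start, which lies across the GENCODE start. Of 32851 promoters in the table, 86 (0.262%) held the repeat and 1 (0.00304%), that of *Fabp6*, held it at least 2 times. The match in *Slc10a2* lay from 221 to 212 bases before its start and was of a kind found in 131 promoters (0.399%). Of 15 genes of the bile acid lists and *Tmigd1*, 13 had a promoter in the table, and no other of these held either motif. *Fgf15* and *Abcc3* had no entry.

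The markers of the label were high in the members of every library. Levels are given as CPM, the UMIs of a gene per 1000000 UMIs summed over a class of barcodes in 1 library, with exact Poisson intervals at 95% that cover counting error only. *Slc10a2* (ENSMUSG00000023073) stood at 243 CPM (233 to 253) in WT members, 224 CPM (209 to 240.2) in *LApc* members and 302 CPM (274 to 331) in *LApcL* members. In other enterocytes it stood at 3.96, 8.94 and 4.95 CPM. These other enterocytes were the 4336 barcodes with *Apoa4* or *Fabp1* at 0.5% of UMIs or more, *Fabp6* under 1% and the same limits on *Tff3* and *Defa24*. This class may hold other cells. A list of 5 tuft cell markers summed to 798, 309 and 613 CPM in its barcodes with *Apoa4* under 0.5%. In its barcodes at or above that limit they summed to 79.3, 21.4 and 87.4 CPM. Whether tuft cells entered the class was not tested. *Slc51a* (ENSMUSG00000035699) was at 1119.6, 850.3 and 1071 CPM in members against 212, 194 and 139 CPM in other enterocytes. *Slc51b* (ENSMUSG00000053862) was at 834, 662 and 646 CPM against 148, 141 and 113 CPM. *Tmigd1* (ENSMUSG00000020839) was at 379.7, 427 and 769.9 CPM against 16.7, 31.1 and 32.2 CPM. The 4 markers that the rule did not use were thus more than 2-fold higher in members in each of the 3 libraries.

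Other transporters and receptors of bile acids were less particular to the members. *Abcc2* and *Abcc3*, which encode efflux pumps, stood at 30.6, 76.9 and 51.0 CPM and 33.3, 19.4 and 33.3 CPM in members, against 81.5, 204 and 67.7 CPM and 51.0, 40.7 and 41.2 CPM in other enterocytes. *Vdr*, the vitamin D receptor, which also senses bile acids, stood at 152, 116 and 129.8 CPM in members and 179, 137 and 124 CPM in other enterocytes. *Nr0b2*, a target of FXR, stood at 1.56, 0.858 and 0 CPM in members, and *Cyp8b1*, an enzyme of bile acid synthesis, had no UMI in members of any library, where 3 counts are 0.312, 0.858 and 2.04 CPM.

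*Fabp6* (ENSMUSG00000020405, chromosome 11, 43596049 to 43601540, minus strand, GRCm38) chose the members, so its level is only a description. It stood at 55222, 30158 and 34019 CPM in members. Its share of a member's UMIs had a median of 5.21%, 2.43% and 3.02% and a maximum of 14.6%, 11.1% and 8.68%. Of the members, 51.3% in WT, 15.4% in *LApc* and 25.1% in *LApcL* held at least 5% *Fabp6*. Members had a median of 10492, 6635 and 7878 UMIs, of 2695.5, 2013 and 2356 genes and of 5.99%, 6.54% and 6.15% mitochondrial UMIs.

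The limit of 1% cut through a continuous range. Just outside it, at 0.75% to under 1% *Fabp6*, lay 50, 63 and 34 barcodes with *Slc10a2* at 52.7, 163 and 98.5 CPM. In the band of equal width just inside lay 48, 66 and 20 barcodes with *Slc10a2* at 39.7, 146 and 113 CPM. *Slc51a* was at 428, 605 and 459 CPM just outside and 475, 506 and 612 CPM just inside. Of the 989, 532 and 188 barcodes at or above 1% *Fabp6*, 136, 18 and 13 were over the limit on *Tff3*, and 7 in WT were over that on *Defa24*, 2 of them over both.

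Members made up 7.44% (Clopper-Pearson interval 6.97 to 7.94) of passing WT barcodes, 4.73% (4.34 to 5.15) of passing *LApc* barcodes and 1.03% (0.885 to 1.19) of those of *LApcL*. The share in *LApc* was 0.636 times, and that in *LApcL* 0.139 times, the share in WT. Among enterocytes alone, taken as members and other enterocytes together, members were 45.9% (43.6 to 48.2) of 1846 in WT, 17.3% (15.9 to 18.7) of 2978 in *LApc* and 16.7% (14.5 to 19.1) of 1049 in *LApcL*. On this base the intervals of *LApc* and *LApcL* overlapped, with a ratio of 0.967, while both lay below WT. A difference in these cells and one in the segment or the cells recovered cannot be told apart.

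**Figure D1:**
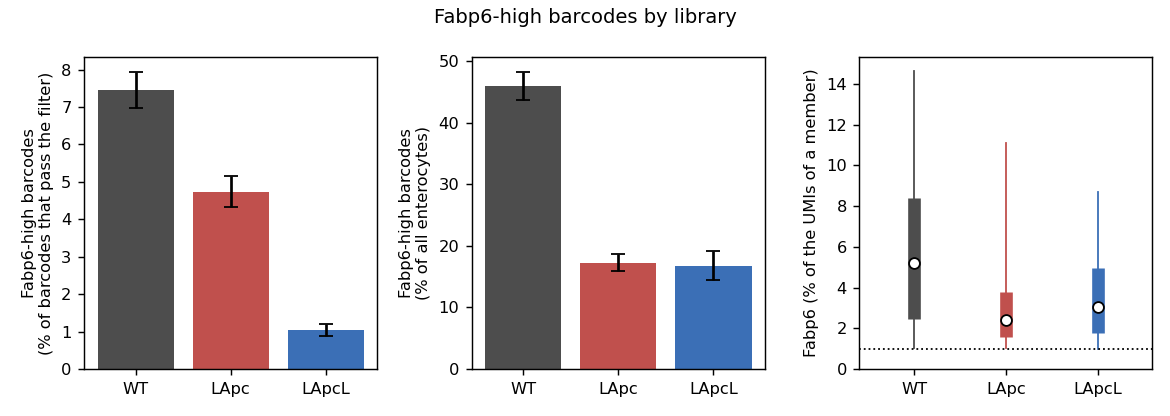
Left, share of *Fabp6*-high enterocytes among passing barcodes (%) per library. Middle, their share among members and other enterocytes together (%), labelled all enterocytes. Lines give the exact 95% counting interval. Right, the *Fabp6* share of single members (% of UMIs). There the dot is the median, the thick bar the quartiles, the thin line the range and the dotted line the limit of 1%. The left bars go from 7.44% in WT to 1.03% in *LApcL*, while in the middle panel *LApc* and *LApcL* stand at 17.3% and 16.7%.

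The members held most of the *Fabp6* of each library and a smaller part of the other bile acid genes. They carried 6.89% of all UMIs of passing barcodes in WT, 4.76% in *LApc* and 0.775% in *LApcL*. They held 80.6%, 75.4% and 70.2% of the *Fabp6* UMIs. Of the *Slc10a2* UMIs they held 76.8%, 52.9% and 36.5%, and of the *Fgf15* UMIs 72.0%, 62.9% and 25.4%. Of the *Nr1h4* UMIs they held 31.5%, 18.5% and 9.40%. The remainder in *LApcL* was spread thinly, with 46.7% of *Slc10a2* UMIs and 47.8% of *Fgf15* UMIs in 15291 barcodes under 0.1% *Fabp6*, at 3.27 and 1.66 CPM. Of these barcodes, 13 held at least 3 *Slc10a2* UMIs and 22 at least 3 *Fgf15* UMIs.

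Within the members, the bile acid genes stood higher in bins of higher *Fabp6* share in each library, which is a description, as *Fabp6* formed the bins. From the members with 1% to under 2% *Fabp6*, through 2% to under 5%, to 5% or more, *Slc10a2* went from 57.2 to 92.1 to 405 CPM in WT. In *LApc* it went from 159.8 to 220.1 to 389.6 CPM, and in *LApcL* from 136 to 354 to 438 CPM. *Fgf15* went from 49.4 to 70.9 to 152 CPM in WT, from 14.6 to 26.9 to 58.2 CPM in *LApc* and from 62.7 to 94.7 to 175 CPM in *LApcL*. *Slc51a* and *Nr1h4* kept the same order of bins, and *Nr1h4* had the narrower range, from 72.1 to 91.1 to 122 CPM in WT. With *Fabp6* UMIs taken out of the total, *Slc10a2* of WT went from 58.0 CPM in the lowest to 442 CPM in the highest bin. In the bin of 2% to under 5% *Fabp6*, WT was below both other libraries for *Slc10a2*, at 92.1 against 220.1 and 354 CPM, and for *Tmigd1*, at 133 against 398 and 873 CPM.

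**Figure D2:**
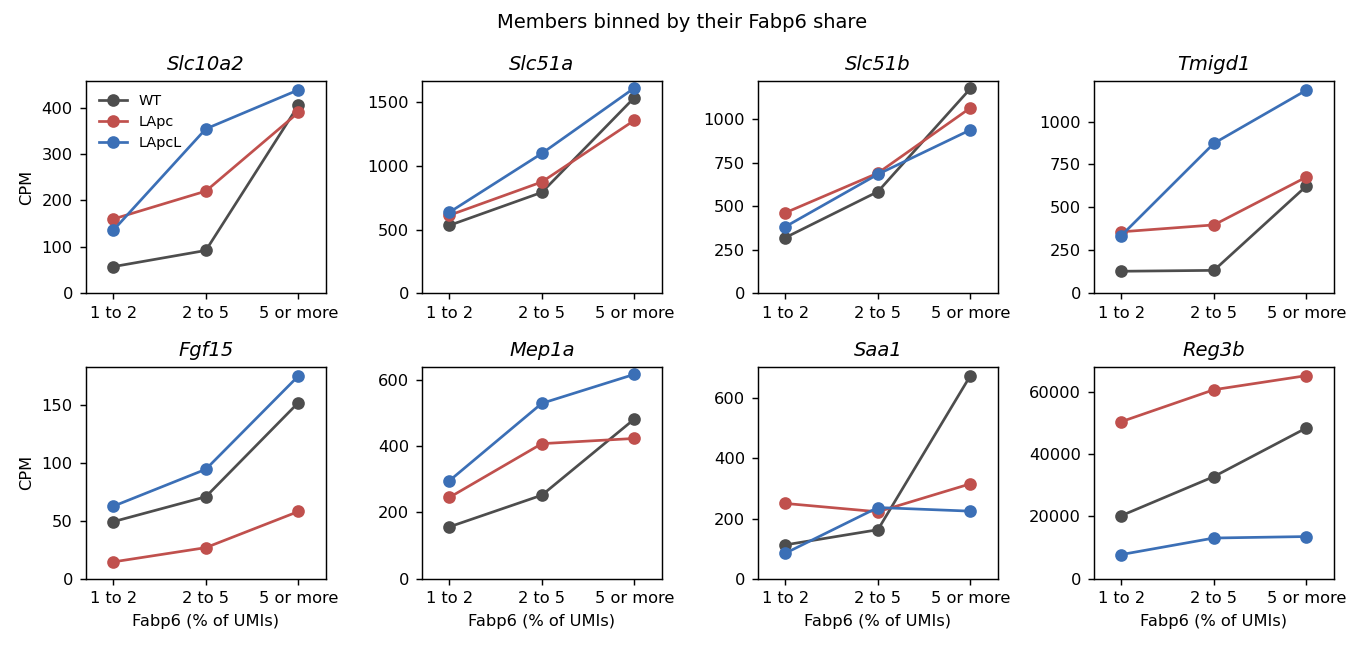
Level of 8 genes (CPM, linear axes from 0) in members binned by the *Fabp6* share of their UMIs (1 to 2%, 2 to 5%, 5% or more), with 1 line per library. *Slc10a2*, *Slc51a*, *Slc51b*, *Tmigd1* and *Fgf15* climb from left to right in all 3 libraries, *Fgf15* of *LApc* lies under the other lines, and *Reg3b* of *LApcL* stays lowest, between 7769.9 and 13538 CPM.

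*Mki67* and *Dmbt1* did not follow that order. The first, a marker of cycling cells, went from 56.0 to 17.1 to 8.45 CPM in WT, from 17.5 to 10.3 to 8.81 CPM in *LApc* and from 58.7 to 8.16 to 11.0 CPM in *LApcL*, where 3 barcodes held 50% of its UMIs. *Dmbt1* encodes a secreted scavenger receptor of mucosal defence and went from 829 to 556 to 322 CPM in WT, from 711 to 330.4 to 171 CPM in *LApc* and from 339.9 to 167 to 90.4 CPM in *LApcL*. *Krt20*, a keratin of differentiated cells, went up in every library, from 586 to 825 to 1281 CPM in WT.

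Against other enterocytes, 1290 genes reached 100 CPM in members or in other enterocytes of every library. Of these, 28 (2.17%) were at least 2-fold higher and 47 (3.64%) at least 2-fold lower in members in all 3 libraries. Both classes were chosen on *Fabp6*, *Apoa4* and *Fabp1* in the same cells, so these counts describe the classes and are no test. The median log2 difference over all 1290 genes was 0.02, 0.05 and 0.03. Besides the markers of the label, the higher genes included *Saa1*, which encodes an acute-phase serum amyloid protein, at 412, 249 and 183 CPM in members against 7.01, 13.0 and 2.27 CPM. Its UMIs in members were concentrated, with 50% of them held by 38, 6 and 4 barcodes. *Suox*, encoding sulfite oxidase, stood at 212, 156 and 213 CPM against 15.8, 7.82 and 12.8 CPM. *Slc5a8*, encoding a monocarboxylate transporter, stood at 121, 135 and 141 CPM against 13.1, 16.5 and 25.9 CPM. *Nr1h4* (ENSMUSG00000047638) stood at 103, 104 and 107 CPM against 23.8, 27.0 and 27.4 CPM, log2 differences of 2.12, 1.94 and 1.96. *Mgat4c*, *Osr2*, *Slc44a4* and the peptidase genes *Mep1a*, *Naaladl1* and *Xpnpep2* completed the 15 highest.

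*Reg1*, *Lct* and *Rbp2* were among the genes lower in members. *Reg1*, which encodes a secreted lectin, stood at 126, 163 and 65.9 CPM in members against 5186, 3497 and 3799.7 CPM in other enterocytes. *Lct*, encoding lactase, stood at 50.8, 50.1 and 40.8 CPM against 635, 445 and 351 CPM. *Rbp2*, which encodes a carrier of retinol, stood at 591, 1791 and 1424 CPM against 12484, 12524 and 8846 CPM. *Fabp1* and *Apoa4*, which had chosen the other enterocytes, *Adh1*, *Adh6a*, *Onecut2*, *Cyp3a11*, *Apoc3*, *Gm766*, *2210407C18Rik*, *Dhrs1*, *Casp6* and *Papss2* were the rest of the 15 lowest. Of a list of 13 proximal markers, which holds *Lct* but neither *Reg1* nor *Rbp2*, 8 were measured at 100 CPM. Of these, 6 were lower in every library (*Lct*, *Fabp1*, *Apoa4*, *Ada*, *Cyp3a11* and *Treh*), where 3.64% of all genes were lower. *Fabp1* and *Apoa4* among them had chosen the other enterocytes, so this count and the list's medians describe the classes and are no test. The list's median log2 differences were -3.21, -2.93 and -3.58. In barcodes with *Tff3* at 2% of UMIs or more, which are rich in goblet cell RNA, *Fabp1* stood at 764, 1952 and 525 CPM, above the 492, 1197 and 366 CPM of members, and *Lct* at 43.8, 55.5 and 25.2 CPM.

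Of the transcription factors that pattern the gut, *Onecut2* was lower in members. *Onecut2*, a factor of the proximal intestine, stood at 11.6, 14.0 and 22.4 CPM in members against 124, 117 and 155 CPM in other enterocytes. It was the 1 of 6 factors measured at 100 CPM, of 17 listed, that passed 2-fold in every library, where 3.64% of all genes were lower. *Gata4*, *Pdx1* and *Hoxb7* lay below that level. *Gata4*, which maintains jejunal identity, stood at 15.2, 12.9 and 12.2 CPM against 40.3, 39.8 and 39.7 CPM. *Pdx1*, a duodenal factor, stood at 1.14, 0.286 and 2.04 CPM against 12.6, 11.4 and 10.8 CPM. *Hoxb7*, a homeobox gene of the posterior body axis, stood at 15.7, 9.44 and 14.9 CPM against 1.63, 0.704 and 0.936 CPM, with log2 differences of 3.27, 3.74 and 4.00. *Cdx2*, an intestinal homeobox gene measured in every library, stood at 171, 189 and 149 CPM against 91.1, 105 and 93.5 CPM.

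**Figure D3:**
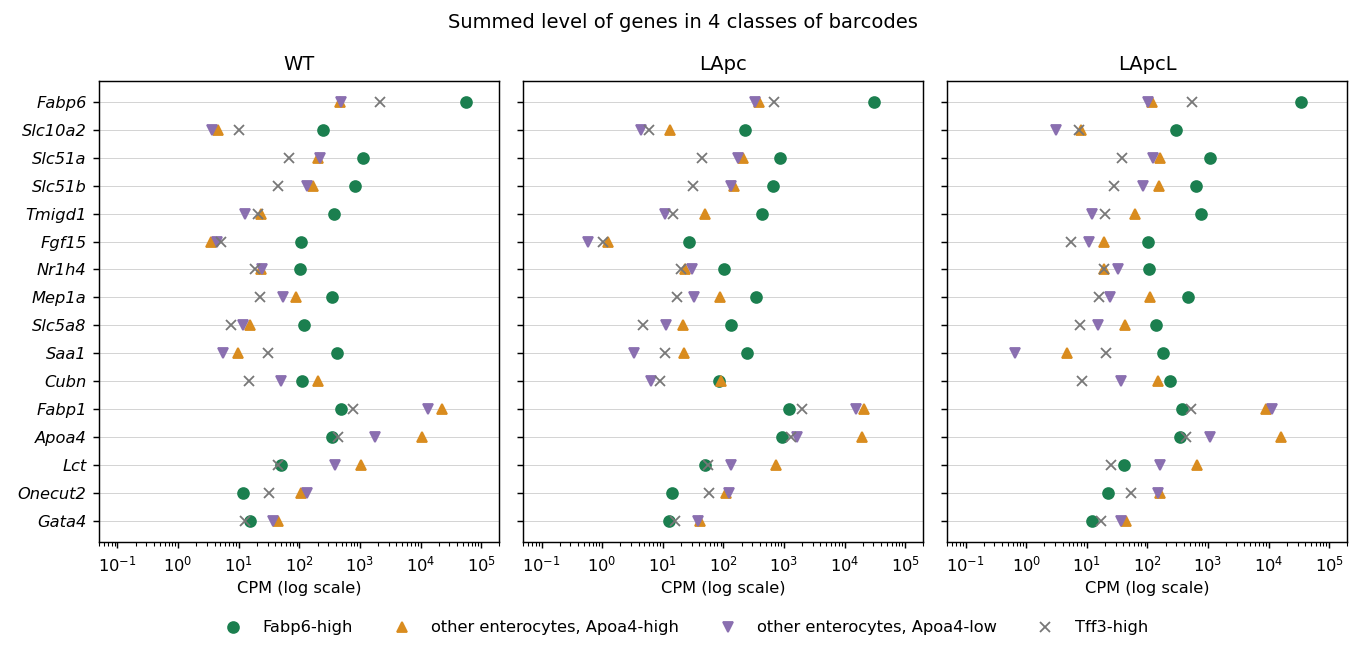
Summed level of 16 genes (CPM, log axis) in *Fabp6*-high enterocytes, *Apoa4*-high and *Apoa4*-low other enterocytes and *Tff3*-high barcodes, 1 panel per library. The points of members lie to the right for *Slc10a2*, *Slc51a*, *Slc51b*, *Tmigd1*, *Fgf15* and *Nr1h4*, and to the left of both other enterocyte classes for *Fabp1*, *Lct*, *Onecut2* and *Gata4*.

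The brush border was partly shared. Of 17 genes of brush border enzymes, 16 were measured at 100 CPM. Of these, 3 were higher in members of every library (*Mep1a*, *Naaladl1* and *Xpnpep2*, all peptidases) and 5 were lower (*Ace*, *Mme*, *Lct*, *Treh* and *Alpi*). Of all genes, 2.17% were higher and 3.64% lower. *Mep1a*, a subunit of meprin, stood at 349.9, 346 and 472 CPM in members against 66.1, 62.0 and 58.4 CPM. *Alpi*, the intestinal alkaline phosphatase, stood at 125, 181 and 187 CPM against 583, 716 and 624 CPM. *Mgam*, a maltase, had log2 differences of -0.15, -0.20 and 0.10, and *Anpep*, an aminopeptidase, of 0.24, 0.63 and 1.31. *Cubn*, which encodes cubilin, the ileal receptor of vitamin B12 bound to its carrier, had log2 differences of 0.03, 0.79 and 1.56.

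Between the libraries, *Nr1h4*, the bile acid importer gene and both exporter genes stayed within 2-fold in members. *Nr1h4* differed by log2 0.01 (-0.17 to 0.18) for *LApc* over WT and 0.05 (-0.20 to 0.29) for *LApcL* over WT. *Slc10a2* differed by -0.12 and 0.31 (0.16 to 0.46). *Slc51a* differed by -0.40 and -0.06, and *Slc51b* by -0.33 and -0.37. *Abcc2*, under 100 CPM, differed by 1.33 and 0.73. *Tmigd1* differed by 0.17 and 1.02, the latter 0.82 with edgeR's TMM scaling. In members with 2% to under 5% *Fabp6* the differences were 1.26 and 1.94 for *Slc10a2* and 1.58 and 2.72 for *Tmigd1*. *Apc* did not separate the libraries in members. It stood at 23.4 CPM (20.4 to 26.6), 17.2 CPM (13.1 to 22.1) and 21.7 CPM (14.9 to 30.7). *Lef1* stood at 0.104 CPM (0.00263 to 0.579), 0 CPM (0 to 1.06) and 3.40 CPM (1.10 to 7.93), from 1, 0 and 5 UMIs, so that the interval of the library labelled with floxed *Lef1* lay above both others. The 3′ tags of either gene need not lie in the deleted part, so this checks no label.

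*Fgf15* (ENSMUSG00000031073) was the 1 tested gene of the bile acid lists that passed 2-fold between libraries. It stood at 108 CPM (101 to 115) in WT members, 27.2 CPM (22.0 to 33.2) in *LApc* members and 104 CPM (88.1 to 122) in *LApcL* members. *LApc* was lower than WT, with a log2 difference of -1.99 (-2.31 to -1.69), and *LApcL* was higher than *LApc* by 1.94 (1.56 to 2.32). Both passed 2-fold in all 10 alternatives that could change them, with ranges of -2.12 to -1.40 and 1.10 to 2.18. *LApcL* over WT was -0.05 (-0.31 to 0.19). With every barcode thinned to 3000 UMIs, 20.4% (17.7 to 23.3) of WT members, 5.67% (3.77 to 8.15) of *LApc* members and 23.8% (17.7 to 30.9) of *LApcL* members had an *Fgf15* UMI, against 1.26%, 0.119% and 1.37% of *Tff3*-high barcodes. Without thinning the UMIs lay in 333 of 848, 47 of 514 and 67 of 175 members. In other enterocytes *Fgf15* stood at 4.06, 0.915 and 14.3 CPM.

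*LApc* over WT gave 22 genes at least 2-fold higher (1.55% of 1417 tested) and 34 lower (2.4%) in members. A gene was tested at 100 CPM in either library and called when its counting interval also left out equality, and the median log2 difference of all tested was -0.04. The highest were *Gm8730*, a processed pseudogene that can share reads with its parent gene, *Sprr2a3*, which has near-identical copies, *Creb3l3*, *S100a6*, *2010109I03Rik*, *Rbp2*, *Slc6a19*, *Sgk1*, *Apoa4* and *Acadl*. *Creb3l3*, a transcription factor of lipid metabolism, stood at 38.2 CPM in WT and 167 CPM in *LApc*, a difference of 2.13 (1.93 to 2.32). *Slc6a19*, which encodes an apical transporter of neutral amino acids, stood at 88.1 and 242 CPM, a difference of 1.46 (1.32 to 1.60). The lowest were *Gsdmc4*, *Gm15308*, *1810065E05Rik*, *Defa20*, *Agr2*, *Defa22*, *Itln1*, *Defa21*, *Upp1* and *Fgf15*. *Gsdmc4*, a gasdermin gene, stood at 164 CPM in WT and 11.2 CPM in *LApc*, a difference of -3.88 (-4.37 to -3.42). *Upp1*, encoding uridine phosphorylase, differed by -2.16 (-2.30 to -2.02) over all members and by -0.71 in those with 2% to under 5% *Fabp6*.

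Among these calls were genes of other cell types. Of the Paneth markers, 5 of 5 tested were lower in *LApc* than in WT members, and of the goblet markers 4 of 7. Of all tested genes, 2.4% were lower. The 7 Paneth markers summed to 4353, 1523 and 1131 CPM in members and to 4664, 1576 and 1411 CPM in other enterocytes, and the defensin copies share near-identical sequence. The 7 goblet markers summed to 7238, 3668 and 1921 CPM in members and to 7126, 5903 and 2998 CPM in other enterocytes. No marker of either list was at 0 in members of any library, and their part in the other calls was not tested. In members with both *Tff3* and *Defa24* under 0.5%, an alternative chosen after the values were seen, *LApc* over WT was -1.90 for *Fgf15*, 2.18 for *Creb3l3* and -3.84 for *Gsdmc4*. It kept 731 WT and 487 *LApc* members, with *Defa24* still at 2476 and 866 CPM and *Tff3* at 1270 and 998 CPM. The difference in *Defa24* between the libraries thus remained in this alternative. As a yardstick chosen after the values were seen, a called gene was compared with *Tff3*-high barcodes of the library where it was higher. At least 2-fold over that level were 11 of the 22 higher genes, among them *Creb3l3*, *Slc6a19*, *Sgk1*, *Acadl* and *Fabp2*, and 11 of the 34 lower genes, among them *Gsdmc4*, *1810065E05Rik*, *Upp1*, *Fgf15*, *Reg3a* and *Duoxa2*. *Apoa4* was not, at 923 CPM in *LApc* members and 1322 CPM in *Tff3*-high barcodes. The share of all tested genes past this yardstick is not given, so its counts here and below only describe the calls.

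*LApcL* over WT gave 28 genes higher (1.93% of 1450 tested) and 41 lower (2.83%), with a median of log2 0.04 over all tested. TMM scaling moved that median by -0.20 and gave 19 higher and 57 lower. With mitochondrial, ribosomal protein and *Fabp6* UMIs out of the total the split was 45 and 43. The highest were *Ifitm1*, *Ifitm3*, *S100a6*, *Sprr2a3*, *S100g*, *Aqp1*, *Creb3l3*, *Ifitm2*, *Slc6a19* and *Fxyd3*. *Ifitm1*, which encodes an interferon-inducible membrane protein, stood at 0.415, 36.3 and 183 CPM in members and 0.711, 70.3 and 200.4 CPM in other enterocytes, and 29.1% of *LApcL* members and 31.0% of *LApcL* *Tff3*-high barcodes had a UMI of it at 3000 UMIs. *S100g*, which encodes a calcium-binding protein, differed by 2.14 (2.03 to 2.24), and 6 of the 175 *LApcL* members held 50% of its UMIs there. At least 2-fold over the *Tff3*-high level were 13 of the 28 higher genes, among them *Creb3l3*, *Slc6a19*, *Fabp2*, *Apoa1*, *Apob*, *Cubn* and *Tmigd1*, and 16 of the 41 lower.

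The genes lower in *LApcL* than in WT members included defence products of enterocytes. Among the lowest 10 were *Gip*, *Clca1*, *1810065E05Rik*, *Defa20*, *Itln1*, *Defa22*, *Gm14851*, *Zg16* and *Defa21*. Of 10 tested genes of antimicrobial and mucosal defence, 7 were lower (*Reg3b*, *Reg3g*, *Dmbt1*, *Duox2*, *Duoxa2*, *Saa1* and *Il18*), with a list median of log2 -1.22. Of all tested genes, 2.83% were lower. All 7 goblet markers and 4 of 5 tested Paneth markers were also lower in this comparison, and their part in the defence genes was not tested. *Reg3b*, a lectin that kills bacteria, stood at 38270.3, 57317 and 11405 CPM in members, and *Reg3g*, its paralog, at 18361, 21607 and 8031 CPM. *Duox2*, an oxidase that makes hydrogen peroxide at the apical surface, stood at 123, 73.8 and 29.2 CPM, and *Duoxa2*, its maturation factor, at 106, 48.3 and 31.9 CPM. *Il18*, a cytokine of the epithelium, stood at 106, 101 and 24.5 CPM. *LApcL* over WT was -1.75 (-1.77 to -1.72) for *Reg3b*, -2.07 (-2.55 to -1.63) for *Duox2* and -2.12 (-2.64 to -1.64) for *Il18*, each past 2-fold in all 10 alternatives. *Reg3g* (-1.19) and *Dmbt1* (-1.25) were past it in 9 of 10. For *LApc* over WT, 2 of 10 were lower, *Reg3a* and *Duoxa2*, where 2.4% of all tested genes were lower.

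In other enterocytes *Reg3b*, *Reg3g*, *Duox2* and *Dmbt1* had differences of the opposite sign. There *Reg3b* stood at 5240, 19759.8 and 15443 CPM, so that *LApcL* over WT was 1.56, and it was 2.03 for *Reg3g*, 0.93 for *Duox2* and 0.76 for *Dmbt1*. Whether the classes differ in this was not tested, as each library is 1 sample. Members over other enterocytes were 2.87, 1.54 and -0.44 for *Reg3b* and 3.42, 2.21 and 0.42 for *Duox2*. *Il18* had -1.38 in other enterocytes, the same sign as in members. *Saa1* had -1.17 for *LApcL* over WT in members but 0.54 in those with 2% to under 5% *Fabp6*, and its level in WT was 675 CPM in the highest bin and 163 CPM in the one below. *Nos2*, the inducible nitric oxide synthase, stayed within 2-fold between libraries at 89.5, 49.5 and 61.2 CPM in members, against 6.70, 1.06 and 5.48 CPM in other enterocytes.

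**Figure D4:**
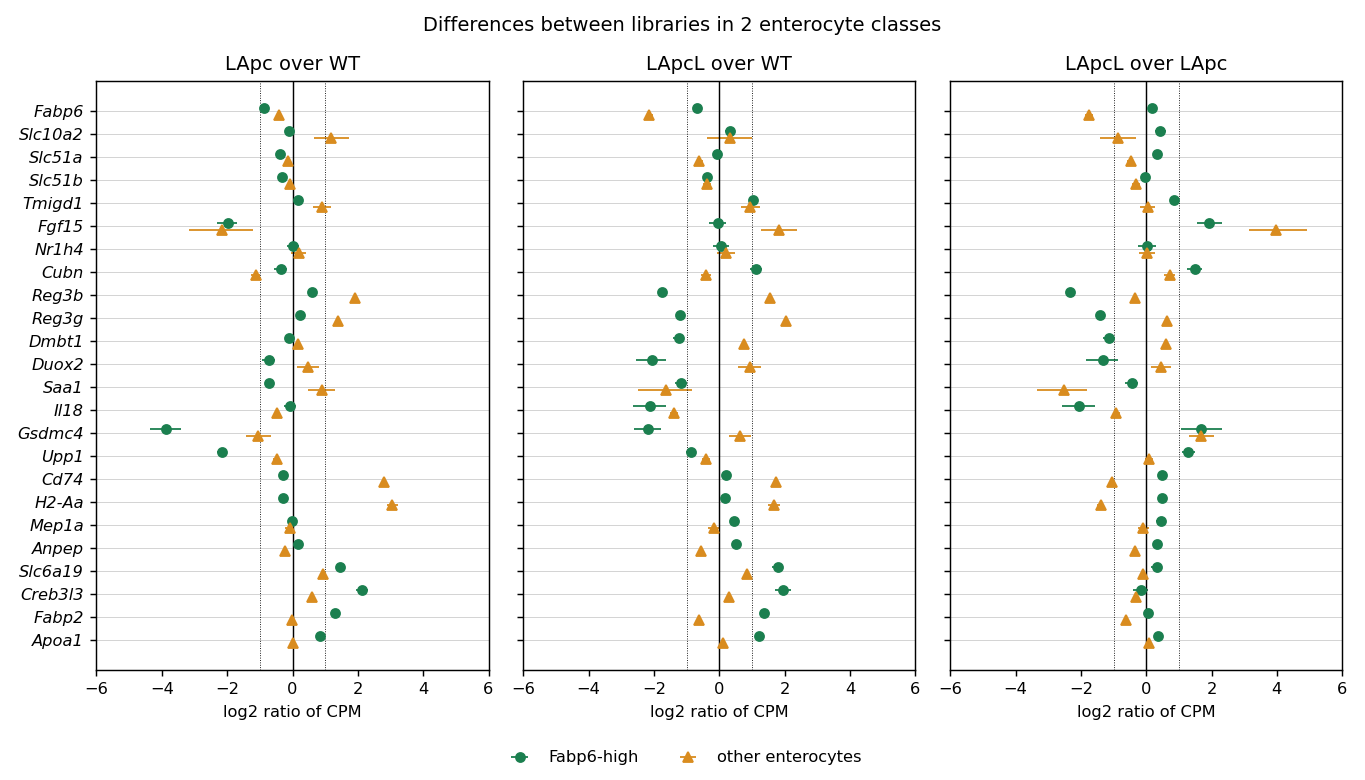
Log2 ratio of CPM between libraries for 24 genes in *Fabp6*-high enterocytes (circles) and other enterocytes (triangles), with exact 95% counting intervals and dotted lines at 2-fold. *Fgf15* of members lies left for *LApc* over WT and right for *LApcL* over *LApc*, and *Reg3b*, *Reg3g*, *Dmbt1* and *Duox2* lie left of 0 in members and right of 0 in other enterocytes for *LApcL* over WT.

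*LApcL* over *LApc* gave 24 genes higher (1.69% of 1419 tested) and 20 lower (1.41%), with a median of log2 0.09. TMM scaling moved that median by -0.19 and gave 14 higher and 26 lower. The highest were *Ifitm3*, *S100g*, *Ifitm1*, *Tm4sf4*, *Cd24a*, *Ifitm2*, *Fgf15*, *Fxyd3*, *Cubn* and *Cyp4f16*. Of these, *Cd24a* and *Tm4sf4* had 50% of their *LApcL* UMIs in 4 and 5 barcodes, and without the barcodes of highest doublet score they differed by 1.65 and 1.24 in place of 2.11 and 2.18. *Cubn* stood at 111, 86.1 and 241 CPM in members, a difference of 1.48 (1.26 to 1.71). It was 0.72 when members were weighted to the same mix of a villus position score, described below. At 3000 UMIs, 22.3%, 17.6% and 42.4% of members had a *Cubn* UMI, against 3.30%, 2.39% and 1.47% of *Tff3*-high barcodes. Among the lowest were *Gm8730*, *Gip*, *Reg3b*, *Il18*, *Zg16*, *Fabp1*, *Reg3g*, *Gm14851* and *Apoa4*. *Gip*, a hormone gene of enteroendocrine cells, had 52.2% of its UMIs in WT members and 40.8% in *LApc* members in 1 barcode each. At least 2-fold over the *Tff3*-high level were 7 of the 24 higher genes, with *Fgf15*, *Cubn* and *Upp1* among them, and 6 of the 20 lower, with *Reg3b*, *Il18* and *Reg3g* among them.

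Some genes of fat absorption were higher in members of the floxed libraries than in WT. Of 12 tested, 4 were called for *LApc* over WT (*Fabp1*, *Fabp2*, *Apoa4* and *Apoc3*, with a list median of 0.68, against 1.55% of all genes), and of 11 tested 3 for *LApcL* over WT (*Fabp2*, *Apoa1* and *Apob*, with a median of 0.27, against 1.93% of all genes). Of the 4, only *Fabp2* was at least 2-fold over the *Tff3*-high barcodes of *LApc*, where *Fabp1* stood at 1952 CPM against 1197 CPM in members and *Apoc3* at 416 against 455 CPM. *Fabp2*, which encodes the intestinal fatty acid binding protein, stood at 5097, 12474 and 13007 CPM in members and 15915, 15833 and 10344 CPM in other enterocytes, against 2683, 3165 and 1913 CPM in *Tff3*-high barcodes. *Apoa1*, an apolipoprotein of secreted lipid particles, stood at 5427, 9813 and 12609 CPM in members and 15584, 15905 and 16993 CPM in other enterocytes. A score meant to follow position along the villus was the share of villus tip genes among UMIs of tip and bottom genes. It differed between the libraries. Members had a median score of 2.16%, 1.62% and 5.52%, and other enterocytes of 33.6%, 27.8% and 26.1%. In members the tip genes summed to 1551, 2201 and 1585 CPM and the bottom genes to 63090, 83608 and 24273 CPM. Weighted to the same mix of scores, *LApcL* over WT was 0.27 for *Fabp2*, 0.47 for *Apoa1*, 0.57 for *Creb3l3* and 0.81 for *Slc6a19*, all under 2-fold, while *LApc* over WT was 1.77 for *Creb3l3*. *Reg3b* gave 59.2%, 66.8% and 44.1% of the UMIs in the members' scores and *Creb3l3* is itself a tip gene, so the score is not independent of the genes compared. *Apoa4*, another tip gene, helped to choose the other enterocytes, so their higher score is in part built in. The weighting gave 5 score bins the same weight, and the lowest held 15 *LApcL* members. Whether position itself differed was not tested.

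**Figure D5:**
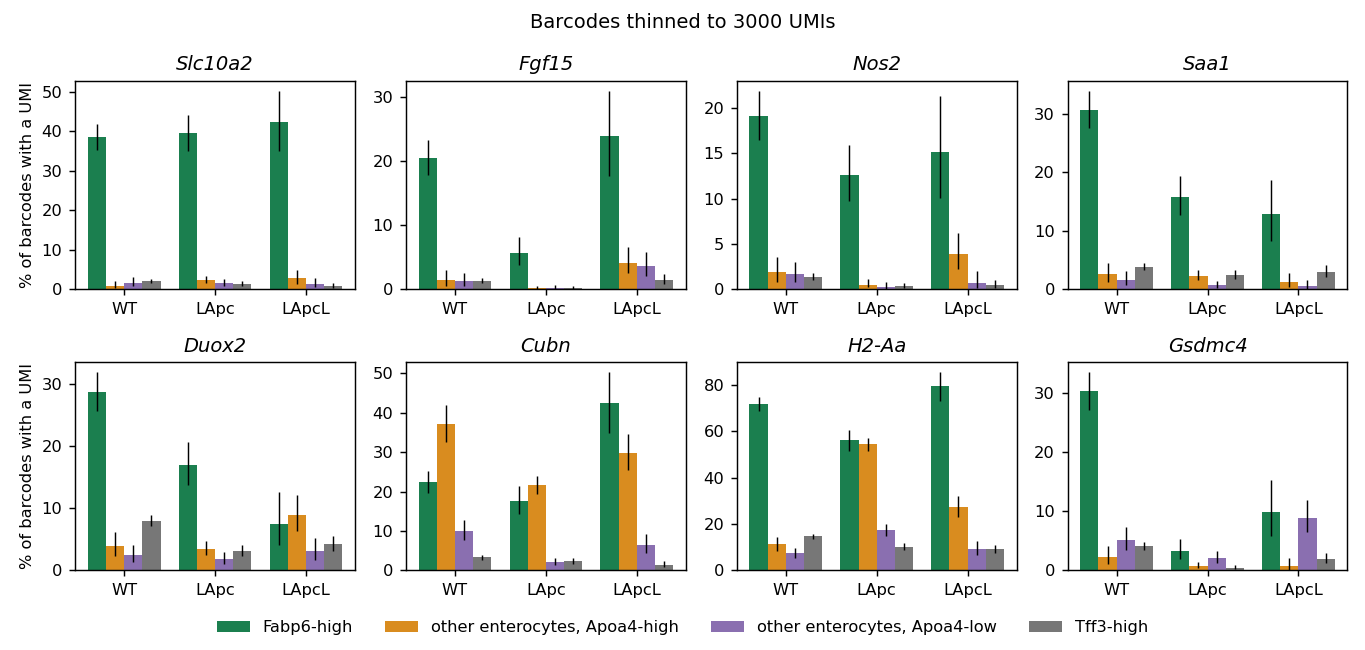
Share of barcodes with at least 1 UMI of 8 genes (%, bars, with exact 95% counting intervals) after each barcode was thinned to 3000 UMIs, in 4 classes per library. *Slc10a2* lies between 38.4% and 42.4% in members, *Fgf15* of members is lowest in *LApc*, and *Duox2* of members goes from 28.8% in WT to 7.56% in *LApcL*.

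Thinning to 3000 UMIs left 848, 476 and 172 members and left out 0, 38 and 3 shallower ones. *Slc10a2* had a UMI in 38.4% (35.2 to 41.8), 39.5% (35.1 to 44.0) and 42.4% (35.0 to 50.2) of members, with overlapping intervals, against 2.02%, 1.37% and 0.783% of *Tff3*-high barcodes. Without thinning these shares in members were 62.3%, 58.9% and 64.6%. Median UMIs were 9099, 5416.5 and 7023 in *Tff3*-high barcodes, and this class held the barcodes over 1% *Fabp6* that the *Tff3* limit had removed. *Gsdmc4* had a UMI in 30.3%, 3.36% and 9.88% of members and 4.06%, 0.418% and 1.96% of *Tff3*-high barcodes. *Duox2* had one in 28.8%, 17.0% and 7.56% of members and 8.04%, 3.16% and 4.21% of *Tff3*-high barcodes.

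Of 8 measured genes of antigen presentation, none was at least 2-fold higher in members than in other enterocytes of every library, where 2.17% of all genes were. *H2-Aa*, *H2-Ab1*, *H2-Eb1* and *Cd74*, which serve MHC class II, passed 2-fold in WT and *LApcL* but not in *LApc*. Whether the libraries differ in this was not tested. *H2-Aa* stood at 640.4, 522 and 729 CPM in members against 35.0, 291 and 111 CPM in other enterocytes. *Cd74*, the invariant chain, stood at 2552, 2093 and 2910.3 CPM against 155, 1082 and 519 CPM. For *Cd74*, members over other enterocytes were 4.04 (3.96 to 4.11) for WT, 0.95 (0.91 to 0.99) for *LApc* and 2.49 (2.42 to 2.55) for *LApcL*. Between libraries none of 10 tested genes of antigen presentation was called in members in any of the 3 comparisons, where 1.41% to 2.83% of all genes were called per direction, with medians of -0.30 for *LApc* over WT, 0.15 for *LApcL* over WT and 0.46 for *LApcL* over *LApc*. In other enterocytes *Cd74* had 2.80 for *LApc* over WT.

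Genes raised by active Wnt signalling stood under 100 CPM in members, as did most genes. None of 12 Wnt targets, 14 cell-cycle genes and 7 adenoma markers reached that level. Of all 27998 genes, only 1417 to 1450 reached it in members of either library of a compared pair. The adenoma markers summed to 3.43, 61.5 and 156 CPM in members, to 6.70, 86.5 and 175 CPM in other enterocytes and to 15.4, 99.8 and 196 CPM in *Tff3*-high barcodes. The Wnt targets summed to 72.0, 94.7 and 222 CPM in members and 103, 161 and 282 CPM in other enterocytes. *Sox17* had no UMI in WT members and stood at 5.72 CPM in *LApc* and 49.6 CPM in *LApcL* members, against 50.6 CPM in *LApcL* *Tff3*-high barcodes. *Axin2*, a feedback target of the pathway, stood at 21.8, 27.2 and 51.6 CPM in members, 10.2, 18.0 and 41.0 CPM in other enterocytes and 11.1, 12.5 and 41.4 CPM in *Tff3*-high barcodes. *Mki67* had a UMI in 3.66%, 3.99% and 3.49% of thinned members and 8.74%, 5.85% and 7.34% of thinned *Tff3*-high barcodes.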

How the data were processed

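EpCAM-positive epithelial cells, in 1 library per genotype, had been profiled with a droplet method (10x Chromium 3′ reagents, version 2 or 3, not said for which library), and the authors deposited raw UMI counts per gene and barcode over 27998 genes. Per the submitters' processing notes and the study's methods, Cell Ranger 2.1.1 and the mm10 reference were used. The libraries held 11453, 13214 and 17388 barcodes and 140181087, 79696291 and 191509615 UMIs (WT, *LApc*, *LApcL*), with medians of 9965, 5582 and 10333 UMIs. The filter removed 62, 2350 and 416 barcodes, of which 3, 26 and 3 held 1% *Fabp6* or more. The libraries shared 214 to 318 barcode sequences pairwise, none among members. Doublets were kept, and an alternative removed the 1049, 1397 and 2419 highest Scrublet scores.

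The deposited counts were summed per class and library and scaled to CPM in Python 3.11.15 (scipy 1.17.1). Ratios carry exact conditional binomial intervals at 95%, and a count of 0 allows 3 counts. A gene was called at 100 CPM in either group, a log2 ratio of at least 1 in size and an interval not spanning 0, with no p-value, since each genotype had 1 library. Named were the 10 highest and 10 lowest calls between libraries, the 15 between classes, and genes of 26 lists, of which a few genes are not reported here. The members and lists were chosen with earlier results of these data known. The calling was tested on simulated data. Alternatives were other limits, scales (edgeR 4.0.16 TMM factors), filters and weightings. Gene models were GENCODE's on GRCm38.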

Additional observations from a re-analysis of the deposited data

Results flagged for a closer look

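*Chgb*, *Reg3a* and *Slc6a20a* differed between members and other enterocytes in opposite directions in different libraries, by at least 0.5 (log2) each way and with no counting interval spanning 0. Genes that changed sign by less were left out, *Reg3b* (2.87, 1.54 and -0.44) among them. The log2 difference of members over other enterocytes for *Chgb*, a granin of endocrine cells, was -0.76 in WT, -1.28 for *LApc* and 0.70 for *LApcL*. Its UMIs in members were concentrated, with 50% of them held by 5, 2 and 2 barcodes. For *Reg3a*, a lectin of mucosal defence that shares sequence with *Reg3b* and *Reg3g*, the difference was -1.21, -1.70 and 0.61. It stood at 295, 104 and 210 CPM in members and at 682, 340.1 and 138 CPM in other enterocytes. For *Slc6a20a*, which encodes an apical transporter of proline, it was -0.59, -0.30 and 0.74, from 99.9, 143 and 164 CPM in members and 150, 177 and 98.1 CPM in other enterocytes. With 1 library per genotype, the difference between the libraries was not tested.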

How the results depend on the processing

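The share of members moved with the *Fabp6* limit, to 8.38%, 6.27% and 1.42% (WT, *LApc*, *LApcL*) at 0.5% and to 6.04%, 2.84% and 0.725% at 2%, in the same order of libraries. A filter of 20 CPM in place of 100 gave 80 higher and 85 lower genes for *LApc* over WT, 149 and 90 for *LApcL* over WT, 136 and 65 for *LApcL* over *LApc*, and 63 and 135 for members over other enterocytes, since more genes were tested. TMM factors gave 14 higher for *LApcL* over *LApc*, and the total without mitochondrial, ribosomal protein and *Fabp6* UMIs gave 45 higher for *LApcL* over WT. Weighting members to the same mix of villus position scores gave 15 higher for *LApcL* over WT and 37 lower for *LApcL* over *LApc*, with no counting interval. Alternatives chosen after seeing the data gave 72 higher for *LApcL* over WT in members with 2% to under 5% *Fabp6*, and 83 and 79 lower against *Apoa4*-high enterocytes alone and with 100 CPM in at least 1 library. *Saa1* for *LApcL* over WT changed sign, to 0.54, in members with 2% to under 5% *Fabp6*. Of 2080 values of single genes, 208 under each of 10 alternatives that could change them, that was the 1 that reversed, 1342 stayed within the counting interval of the main value and 737 did not. Removing the highest Scrublet scores kept 52 of 56 calls for *LApc* over WT, 60 of 69 for *LApcL* over WT and 28 of 44 for *LApcL* over *LApc*. *Apob* and *Tmigd1* for *LApcL* over WT lost their call in 3 of 10 alternatives and *Reg3a* for *LApcL* over *LApc* in 6. The cause was not tested. Depth limits the 175 members of *LApcL*, where 3 counts are 2.04 CPM. No paired analysis was possible because each genotype had 1 library and no comparison came from a test.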

Other observations

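Other functions of the members were also measured. Of 24 genes of xenobiotic metabolism, 14 were measured at 100 CPM in every library and 2, *Cyp3a11* and *Cyp3a13*, were lower in members than in other enterocytes of every library, where 3.64% of all genes were lower and 2.17% higher. The list's median log2 differences were -0.84, -0.57 and 0.15. *Gsta1*, a glutathione transferase, stood at 269, 308 and 252 CPM in members and 2294, 1235 and 441 CPM in other enterocytes. *Guca2a*, which encodes guanylin, stood at 1724, 2217 and 2559 CPM in members against 576, 670.1 and 611 CPM in other enterocytes and 7832, 4774 and 5453 CPM in *Tff3*-high barcodes, and was the 1 of 9 measured genes of ion transport that was higher in members than in other enterocytes of every library. *Slc1a1*, a glutamate transporter, stood at 101, 81.8 and 68.6 CPM against 18.0, 11.9 and 11.5 CPM. None of 7 measured transporters of sugars, peptides and amino acids passed 2-fold in every library. Between libraries *Slc6a19* was the 1 called, of 8 tested for *LApc* over WT and of 9 for *LApcL* over WT. It was higher in both, where 1.55% and 1.93% of all tested genes were called higher. Of the villus bottom genes, 1 of 7 tested was lower in *LApc* than in WT members (*Gsdmc4*), against 2.4% of all genes. In *LApcL* 4 of 7 were lower (*Reg3b*, *Reg3g*, *Gsdmc4* and *Il18*), against 2.83% of all genes. Of the villus tip genes, 2 of 4 tested were higher in *LApc* (*Apoa4* and *Creb3l3*) and 1 of 4 in *LApcL* (*Creb3l3*), against 1.55% and 1.93% of all genes. *Reg3b*, *Reg3g* and *Il18* were also counted in the defence list and *Apoa4* in that of fat absorption, so these are the same calls.

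Markers of stromal and immune cells, which the sort should leave out, were low in members. The 6 stromal markers summed to 1.97, 3.43 and 5.44 CPM, with *Col1a1* at 0 in every library. The 6 immune markers summed to 2.28, 19.2 and 3.40 CPM, of which *Gzma* gave 14.9 CPM in *LApc*. Tuft and enteroendocrine cells are epithelial, and the sort keeps them. The 5 tuft markers summed to 68.3, 6.01 and 71.3 CPM in members and to 524, 162 and 408 CPM in other enterocytes. The 7 enteroendocrine markers summed to 672, 363 and 306 CPM in members and 1532, 1049 and 802 CPM in other enterocytes. Of 5 sex-linked genes, the 4 on the Y chromosome had no UMI in the members of any library, and *Xist* stood at 533, 458 and 569 CPM. The 11 early response genes summed to 1502, 972 and 1325 CPM, with *Hspa1a*, a heat shock gene, at 32.4, 1.14 and 1.36 CPM.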
